A study of Mus musculus with 12 samples.

Results

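The Peg3 and Zim1 domain is an imprinted gene cluster on mouse chromosome 7. It was examined in RNA sequencing libraries of the hypothalamus, the brain region that controls feeding, body temperature and hormone release. The genes were Zim1, Peg3, Usp29 and Zfp264, listed by name and chosen by their normalized CPM (counts per megaread) in the 2 groups of libraries, with the low Zim1 of 1 group already known. Of these 4 genes, 3 had a row among the 32494 genes of the deposited table, and Zfp264, which GENCODE M21 lists as a transcribed pseudogene, was not analysed here. All 12 mice were male, carried floxed alleles of Smc3, which encodes a core subunit of the cohesin ring, and received tamoxifen. Their hypothalamus was collected 5 weeks after tamoxifen; an age of 8 weeks is also stated, with no word on when it applied. The 7 libraries labelled WT came from mice without the Camk2a-cre/ERT2 transgene and the 5 labelled cKO from mice with it. The Camk2a promoter drives this tamoxifen-dependent Cre in excitatory neurons of the forebrain, so other cells of the tissue were not targeted by design. Libraries are named by group and by the mouse number in the title. The titles of both groups also carry the word control, which was not used, and the labels give no batch. The title and design of the study name the role of Smc3 in adult forebrain neurons and its effects on weight as the question.

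Imprinted genes are expressed mainly from the copy inherited from 1 parent. Zim1, which encodes a Krüppel-type zinc finger protein, is known as a maternally expressed gene, and Peg3, Usp29 and Zfp264 as paternally expressed genes. Peg3 encodes a large zinc finger protein known for its roles in maternal care, feeding and body weight, and Usp29 encodes a ubiquitin-specific protease. Peg3 and Usp29 start beside each other in opposite directions, and a region that is DNA-methylated on the maternal copy covers their shared start and controls the imprinting of the cluster. CPM sums the reads of both parental copies, so a value says nothing about which copy made the RNA. Strand use in counting is not given in the sources used here, so reads of a gene and of a partner transcribed from the opposite strand, such as Peg3 and Peg3os, cannot be told apart.

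The start regions of Zim1 and Peg3 are shown because the 2 neighbouring genes had different patterns in these libraries. They come from RefSeq on GRCm38.p6 and run from 250 bases before to 50 bases after the start, 5′ to 3′ on the gene's strand. The Zim1 window is chr7:6696383-6696682 on the minus strand and the Peg3 window is chr7:6730370-6730669 on the minus strand. Capitals mark matches to the motifs searched on both strands, which are the Sp1 GC box GGGCGG in Zim1 and, in Peg3, the cyclic AMP response element TGACGTCA and the CCAAT box, read as ATTGG on the printed strand.
Zim1: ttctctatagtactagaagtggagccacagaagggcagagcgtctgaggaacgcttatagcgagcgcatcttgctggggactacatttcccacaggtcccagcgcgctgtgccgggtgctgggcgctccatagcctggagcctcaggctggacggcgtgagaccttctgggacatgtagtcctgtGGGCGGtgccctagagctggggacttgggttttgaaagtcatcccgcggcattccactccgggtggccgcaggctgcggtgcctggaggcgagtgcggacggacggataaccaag
Peg3: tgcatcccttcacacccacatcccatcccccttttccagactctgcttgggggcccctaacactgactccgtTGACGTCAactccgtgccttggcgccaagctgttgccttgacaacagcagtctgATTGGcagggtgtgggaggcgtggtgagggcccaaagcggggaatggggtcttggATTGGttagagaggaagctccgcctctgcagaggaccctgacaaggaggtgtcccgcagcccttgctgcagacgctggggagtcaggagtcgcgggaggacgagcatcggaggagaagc

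The Usp29 window, chr7:6730333-6730632 on the plus strand, shares 263 of its 300 bases with the Peg3 window, identical on opposite strands, and the annotated starts lie 164 bases apart. The same TGACGTCA and the same 2 CCAAT boxes therefore lie in both windows. Counted from each start site, TGACGTCA begins at position -178 for Peg3 and at position 8 for Usp29. Over all 32851 windows, TGACGTCA occurred in 1.79%, CCAAT in 37.4% and GGGCGG in 35.7%. The letters GCCATNTT, a YY1 motif found in 6.05% of windows, and AGGGGGC, a part of the CTCF motif found in 10.6%, were in none of the 3 windows. The windows end 50 bases after each start, so the rest of the genes and of the imprinting control region was not searched. CpG pairs numbered 20 in the Zim1 window, 13 in the Peg3 window and 17 in the Usp29 window, against a median of 7 over all windows. Of all windows, 26.5% held at least as many CpG pairs as the Zim1 window and 37.9% at least as many as the Peg3 window. A match is a description of the letters, and these data hold no binding or methylation measurement.

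WT 1 was the deepest library, with 68.7 megareads, and the other 11 libraries held 17.1 to 24.0 megareads each. Smc3, the floxed gene, went against the labels: its mean was 81.6 ± 3.14 CPM (SD, n = 7) under the WT label and 131 ± 10.3 CPM (SD, n = 5) under the cKO label. Its log2 fold change was 0.67 ± 0.05 (SE; adjusted p = 3.06e-05, limma), and every cKO library, at 116 or more, was above every WT library, at 85.7 or less. CPM sums the reads of the whole gene over all cells of the sample. It does not show whether the floxed part of Smc3 was removed, and the cause of this difference was not tested. Directions below are therefore between libraries labelled WT and libraries labelled cKO. Hypothalamic marker genes were detected in every library, with a sum of at least 94.8 CPM, but they were low in WT 4, WT 5, cKO 12 and cKO 13. The mean log2(CPM + 1) over 16 of the 18 markers was 2.25 in WT 4, 2.12 in WT 5, 2.75 in cKO 12 and 3.11 in cKO 13, against 3.32 to 4.64 in the other 8 libraries. Over 6 markers of magnocellular and paraventricular neurons it was 2.35 to 2.72 in those 4 libraries and 4.75 to 5.94 in the others, and over 6 oligodendrocyte markers it was 9.04 to 9.26 and 8.02 to 8.77. Across all 15359 tested genes, 2172 (14.1%) passed an adjusted p of 0.05 in limma, 1004 of them (6.54%) with higher and 1168 (7.6%) with lower values under the cKO label. With each library centred on its median the split was 1377 higher and 1054 lower of 2431. The group ranges did not overlap for 1033 genes (6.73%).

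Zim1, the maternally expressed zinc finger gene, was the 1 measured gene of the domain whose groups did not overlap, beside 6.73% of all tested genes, a separation that its choice had fixed. In the libraries labelled WT it was lowest at 34.9 CPM in WT 7, had its median of 41.3 CPM in WT 11 and was highest at 49.6 CPM in WT 15. In those labelled cKO it was at 15.4 CPM in cKO 8, 17.3 in cKO 9, 18.4 in cKO 12, 11.8 in cKO 13 and 20.8 in cKO 14. All 5 of these values lay below all 7 WT values, and 14.1 CPM separated the lowest WT library from the highest cKO library. The means were 41.0 ± 5.84 CPM (SD, n = 7) and 16.7 ± 3.39 CPM (SD, n = 5), so Zim1 was 2.45-fold lower in the libraries labelled cKO, at 40.8% of the WT level. The log2 fold change on the log2(CPM + 1) scale was -1.26 ± 0.12 (SE), and the authors' deposited table gives -1.30. Among all tested genes it was the 3rd most negative log2 fold change, a value given as a description, since this contrast chose the gene. These values rest on 248 to 3009 reads per library. In bulk tissue, fewer cells that express a gene and less RNA per cell cannot be told apart.

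Peg3, the paternally expressed gene next to Zim1, was 40th of 15359 genes by mean CPM, a rank that is not corrected for transcript length. Among the libraries labelled WT it was lowest at 1246 CPM in WT 11, had its median of 1347 CPM in WT 4 and was highest at 1550 CPM in WT 15. In the libraries labelled cKO it was at 1243 CPM in cKO 8, 1322 in cKO 9, 1392 in cKO 12, 1147 in cKO 13 and 1478 in cKO 14. The groups overlapped over most of their range, with cKO 13 and cKO 8 below every WT library. Peg3 averaged 1363 ± 102 CPM (SD, n = 7) and 1316 ± 128 CPM (SD, n = 5), or 96.5% of the WT level. Its log2 fold change was -0.05 ± 0.07 (SE), on 24161 to 95969 reads per library.

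Usp29, the protease gene that starts beside Peg3, also had overlapping groups. In the libraries labelled WT it was lowest at 136 CPM in WT 11, had its median of 147 CPM in WT 5 and was highest at 165 CPM in WT 15. In those labelled cKO it was at 157 CPM in cKO 8, 143 in cKO 9, 162 in cKO 12, 160 in cKO 13 and 152 in cKO 14. Every cKO value fell inside the WT range. The means were 149 ± 11.6 CPM (SD, n = 7) and 155 ± 7.56 CPM (SD, n = 5), or 104% of the WT level. The log2 fold change was 0.05 ± 0.05 (SE), on 2560 to 10614 reads per library. The SEs leave room for small differences in Peg3 and Usp29.

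**Figure D1:**
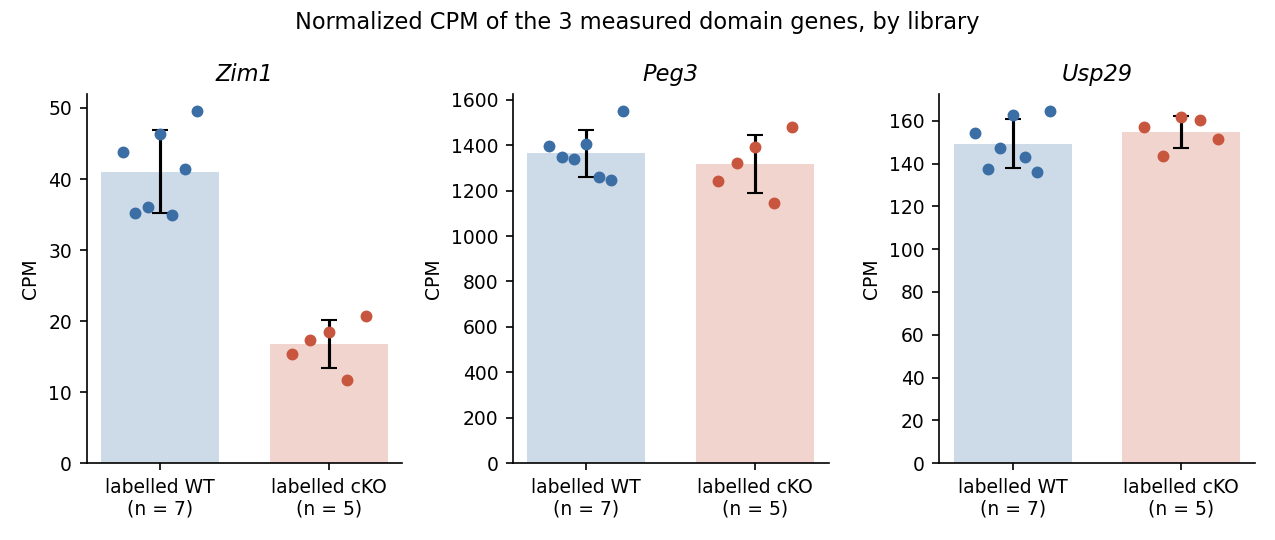
Normalized CPM (vertical axes, starting at 0) of Zim1, Peg3 and Usp29 in each library, with libraries labelled WT (n = 7) in blue and labelled cKO (n = 5) in red; points are libraries, bars are group means and whiskers are SD. For Zim1 all 5 cKO points, at most 20.8 CPM, lie below all 7 WT points, at least 34.9 CPM, while the points of Peg3 and Usp29 overlap.

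Per length of exon, taken from GENCODE M21, the order of levels in every library was Peg3, then Usp29, then Zim1. In the libraries labelled WT, Peg3 was at 93.5 to 116 CPM per kilobase, Usp29 at 7.52 to 9.10 and Zim1 at 4.31 to 6.13. In those labelled cKO, Peg3 was at 86.1 to 111 CPM per kilobase, Usp29 at 7.93 to 8.96 and Zim1 at 1.46 to 2.57. Neighbours in that order did not overlap in either group. The lengths were 13324 bases for Peg3, 18078 for Usp29 and 8086 for Zim1, over all annotated exons, and the authors' own annotation is not given in the sources used here.

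Ratios between genes of the same library remove its scaling. Zim1 CPM was 2.62% to 3.32% of Peg3 CPM in the libraries labelled WT, with a mean of 3.003 ± 0.301% (SD, n = 7). In those labelled cKO it was 1.03% to 1.41%, with a mean of 1.26 ± 0.144% (SD, n = 5). The Zim1 to Peg3 ratio thus separated the groups as Zim1 CPM did, and its coefficient of variation of 10.03% in WT and 11.4% in cKO was smaller than the 14.2% and 20.2% of Zim1 CPM. Zim1 CPM was 24.4% to 30.4% of Usp29 CPM in WT and 7.34% to 13.7% in cKO. The coefficient of variation of the Zim1 to Usp29 ratio was 9.33% in WT and 22.2% in cKO, which in cKO was above that of Zim1 CPM. Usp29 CPM was 10.2% to 11.6% of Peg3 CPM in WT and 10.2% to 13.98% in cKO, and it was highest in cKO 13, at 13.98%, and in cKO 8, at 12.6%. Those are the 2 libraries with the lowest Peg3. Zim1 varied more within WT than genes of like abundance: the 500 tested genes nearest in WT mean CPM had a median coefficient of variation of 6.16%. In cKO the same 500 genes had a median of 7.06%. They were not matched to the lower level of Zim1 in cKO, so the cKO values are not a comparison at like abundance.

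Of the other genes annotated in the domain, those with a row gave almost no reads. Zim2, annotated by RefSeq as a long noncoding gene beside Zim1, had 0 reads in all 12 libraries, which allows up to 0.0436 CPM in the deepest library and 0.178 CPM in the shallowest. Zim3, also annotated as long noncoding, had 10 reads in total, spread over 6 libraries of both groups, at no more than 0.126 CPM. The microRNA gene Mir3099 had 1 read in 1 library. The antisense gene Peg3os and the pseudogenes Gm51257 and LOC115485607 had no row and were not analysed here.

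Beyond the domain, the 10 nearest tested genes on each side in RefSeq order, mostly zinc finger genes, were compared in the same way. Relative to the Peg3 start they lay at -1670 to -291 kb on the Zim1 side and at 384 to 6038 kb on the Usp29 side. Not all of them are therefore close to the domain. Among these 20 genes 0 passed the threshold in limma, beside 14.1% of all tested genes, 3 had an unadjusted p under 0.05, and edgeR called 0 and DESeq2 called 1. Their log2 fold changes ran from -0.08 to 0.31 with a median of 0.04, beside a median of 0.01 over all tested genes. The gene called by DESeq2 was Zfp667, a zinc finger gene on the Zim1 side. Its log2 fold change was 0.19, with an adjusted p of 0.0550 in limma, and it passed in limma with median centring, quantile normalization or a minimum mean of 5 CPM, and without WT 5, WT 15 or cKO 9. With both marker scores the 1 gene past the threshold was Clcn4, a chloride transporter gene, and without WT 4 and WT 5 together it was Zfp773, a zinc finger gene on the Usp29 side. Olfr1344, the nearest tested gene on the Zim1 side, and Zfp954, the nearest on the Usp29 side, were not past the threshold. Olfr1344 is an olfactory receptor gene and Zfp954 a zinc finger gene.

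**Figure D2:**
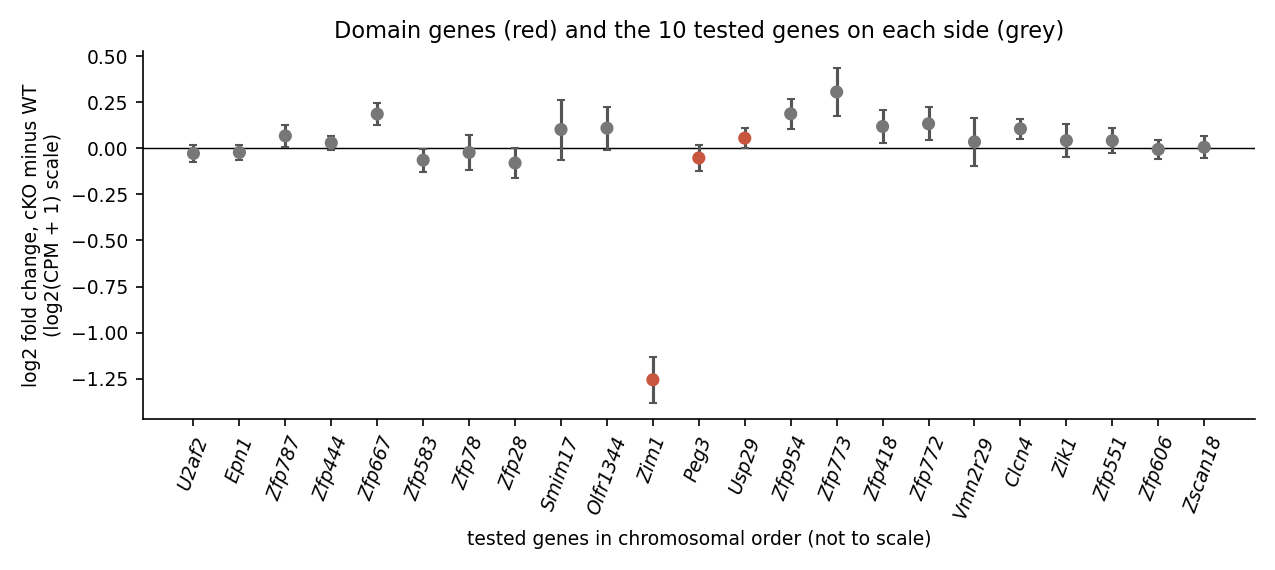
Log2 fold change on the log2(CPM + 1) scale, libraries labelled cKO minus WT (vertical axis), of the 3 measured domain genes (red) and of the 10 tested genes on each side (grey), in chromosomal order and not to scale; points are estimates and whiskers are SE. Zim1 lies at -1.26, and all other genes lie between -0.08 and 0.31.

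Within the 7 libraries labelled WT, whose spread was not used to choose the genes, 1 of the 3 pairs of members, Peg3 and Usp29, varied together past the threshold after adjustment. Peg3 and Usp29, which share a start region, had Pearson's r = 0.84 and Spearman's rho = 0.89 over log2(CPM + 1), with exact two-sided permutation p = 0.0119 for r. Adjusted over the 3 pairs, p was 0.0357 for r and 0.0369 for rho, and r was 0.67 without WT 11 and WT 15, the libraries farthest from the median of Peg3. The adjusted p was over 0.05 when WT 1, WT 5, WT 6 or WT 15 was left out, with r between 0.78 and 0.92 over the 7 such fits. Zim1 and Usp29 had r = 0.78 and rho = 0.75 (exact permutation p = 0.0492 for r, adjusted p = 0.0623; rho adjusted p = 0.0663), and r was 0.69 without WT 7 and WT 15. Zim1 and Peg3 had r = 0.73 and rho = 0.75 (exact permutation p = 0.0623 for r, adjusted p = 0.0623; rho adjusted p = 0.0663), and r was 0.32 without WT 7 and WT 15. WT 7 and WT 15 are the lowest and highest WT libraries for Zim1, so leaving them out also narrows its range. Both pairs with Zim1 passed without WT 11, at r = 0.88 with Peg3 and 0.95 with Usp29 (adjusted permutation p = 0.00833 for each). They also passed with quantile normalization (adjusted permutation p = 0.0333 with Peg3 and 0.0496 with Usp29), so the count of 1 depends on these choices. The 3 genes share library and depth in each point, and the smallest p that 7 libraries allow is 0.000397.

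The 5 libraries labelled cKO fell under the minimum of 6 libraries set for a correlation test. Each r given without a pair of WT libraries also rests on 5 libraries and is a description, with no p. The order of the cKO libraries by Zim1 was the same as by Peg3, from cKO 13 through cKO 8, cKO 9 and cKO 12 to cKO 14. With the mean of each group removed, Zim1 and Peg3 had r = 0.87 and rho = 0.82 over the 12 libraries (exact permutation within groups, adjusted p = 0.00347 for r and 0.0161 for rho). In the same comparison Peg3 and Usp29 had r = 0.40 (adjusted permutation p = 0.295) and Zim1 and Usp29 had r = 0.31 (adjusted permutation p = 0.308). Without WT 4, WT 5, cKO 12 and cKO 13, r over the other 8 libraries was 0.90 for Zim1 and Peg3 (adjusted permutation p = 0.025 for r and 0.0583 for rho), 0.66 for Peg3 and Usp29 (adjusted permutation p = 0.142) and 0.50 for Zim1 and Usp29 (adjusted permutation p = 0.256). Over the 12 libraries, then, Zim1 and Peg3 passed and Peg3 and Usp29 did not, in a comparison chosen after seeing the data. The difference between these correlations was not tested. Over the 8 libraries the rho of Zim1 and Peg3 did not pass, and within WT that pair had not passed in the main setting.

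**Figure D3:**
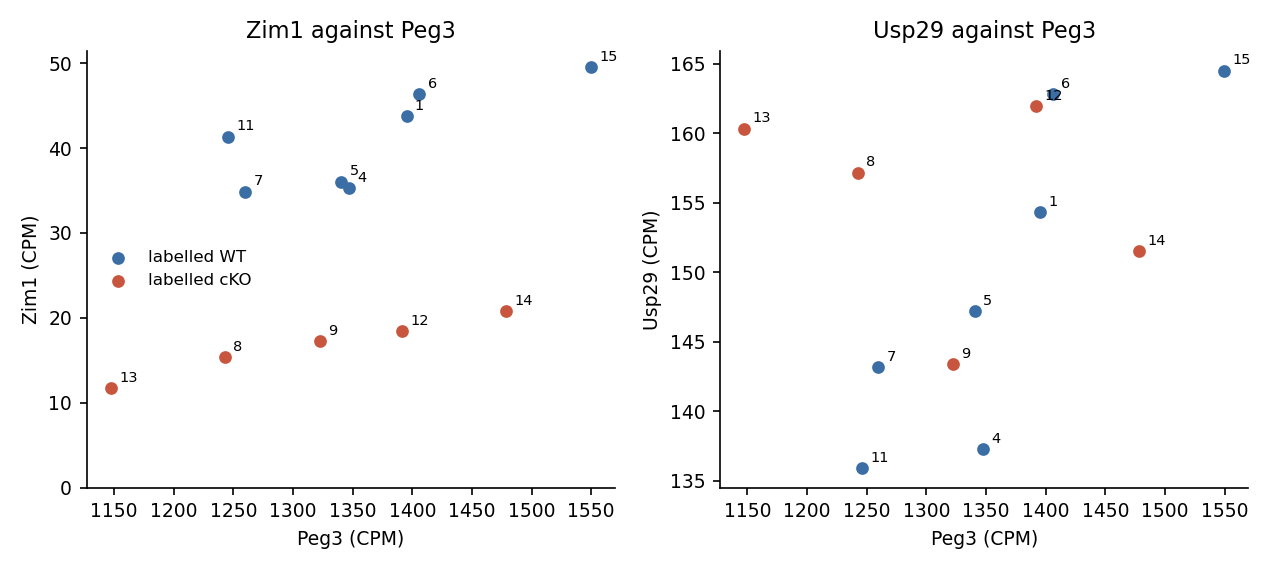
Zim1 CPM (left) and Usp29 CPM (right) against Peg3 CPM in each library, labelled by mouse number; only the axis of Zim1 starts at 0. The WT points (blue) and cKO points (red) of Zim1 form 2 separate rising bands, with the order of the 5 cKO libraries the same on both axes, while cKO 13 and cKO 8 combine low Peg3 with Usp29 at 160 and 157 CPM.

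By likeness of pattern, measured as Pearson's r of log2(CPM + 1) over 12 libraries after each group mean was removed, the 5 tested genes nearest to Zim1 were Jmjd8 (r = 0.957), Arhgap20 (r = 0.950), Golgb1 (r = 0.945), Cnr1 (r = 0.941) and Zfp36l2 (r = 0.939). Peg3 was 45th in that order for Zim1 and Usp29 was 4102nd of the tested genes. The 5 nearest to Peg3 were Stk35 (r = 0.961), Ctdspl (r = 0.953), Atp8a1 (r = 0.932), Zfp623 (r = 0.929) and Srp54a (r = 0.926), and Zim1 was 39th. These genes lead an order over all tested genes and are given as a description.

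Markers of the thalamus, a neighbouring brain region, differed between the groups. Of 12 thalamic markers, 0 were higher and 5 lower under the cKO label (limma; 6.54% and 7.6% of all tested genes), with a median log2 fold change of -0.44. Their summed level was 1354 to 2210 CPM in WT and 1122 to 1549 CPM in cKO, and none was at 0. The thalamic score, the mean of log2(CPM + 1) over these markers, was 6.58 ± 0.345 (SD, n = 7) in WT and 6.07 ± 0.343 (SD, n = 5) in cKO. Of 16 hypothalamic markers tested, 1 was higher and 0 lower, with a median log2 fold change of 0.45 and a summed level of 94.8 to 741 CPM in WT and 204 to 802 CPM in cKO. Of 11 cortical and striatal markers tested, limma called 0 in either direction, 0 had an unadjusted p under 0.05, and edgeR and DESeq2 called 0. Of 6 general neuron markers, 2 were higher and 0 lower (limma; 6.54% and 7.6% of all tested genes), with a median log2 fold change of 0.12. In the lists for astrocytes, oligodendrocytes, microglia, endothelium and choroid plexus with ependyma, limma and edgeR called 0, DESeq2 called 1 choroid plexus or ependymal gene, and 3 genes in all had an unadjusted p under 0.05 in limma.

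Within the 7 libraries labelled WT, Peg3 and Usp29 were higher where the thalamic score was lower. Peg3 against the thalamic score had r = -0.96 and rho = -0.96 (exact permutation p = 0.00119 for r, adjusted over 9 relations p = 0.0107 for r and 0.0125 for rho), and r was -0.97 without WT 15 and WT 11. The adjusted p for Peg3 was no longer under 0.05 without WT 1, WT 6 or WT 15, while r stayed at -0.98 to -0.94 over the 7 such fits of 6 libraries. Usp29 had r = -0.90 and rho = -0.96 (exact permutation p = 0.00833 for r, adjusted p = 0.0375 for r and 0.0125 for rho), and r was -0.78 without WT 15 and WT 11. The adjusted p for Usp29 was over 0.05 without WT 1, WT 5, WT 6, WT 11 or WT 15, while r stayed at -0.96 to -0.84. Zim1 had r = -0.67 and rho = -0.79 (exact permutation p = 0.109 for r, adjusted p = 0.196 for r and 0.144 for rho), and r was -0.86 without WT 15 and WT 11, with a call when WT 11 alone was left out. With group means removed over 12 libraries, r was -0.55 for Peg3 (adjusted permutation p = 0.225), -0.78 for Usp29 (adjusted permutation p = 0.0230) and -0.38 for Zim1 (adjusted permutation p = 0.485). With WT 4, WT 5, cKO 12 and cKO 13 also left out, r was -0.60 for Peg3 (adjusted permutation p = 0.300), -0.91 for Usp29 (adjusted permutation p = 0.138) and -0.45 for Zim1 (adjusted permutation p = 0.496). For the hypothalamic score WT 4 and WT 5 lie well below the other 5 WT libraries, so no r over all 7 is read. No member passed over all 7 (adjusted permutation p = 0.196 to 0.580). Without WT 4 and WT 5, r was 0.53 for Zim1, 0.71 for Peg3 and 0.91 for Usp29, a description over 5 libraries with no p. Over the 8 libraries left without WT 4, WT 5, cKO 12 and cKO 13, with group means removed, r against that score was 0.53 for Zim1, 0.68 for Peg3 and 0.86 for Usp29 (adjusted permutation p = 0.375, 0.283 and 0.138).

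**Figure D4:**
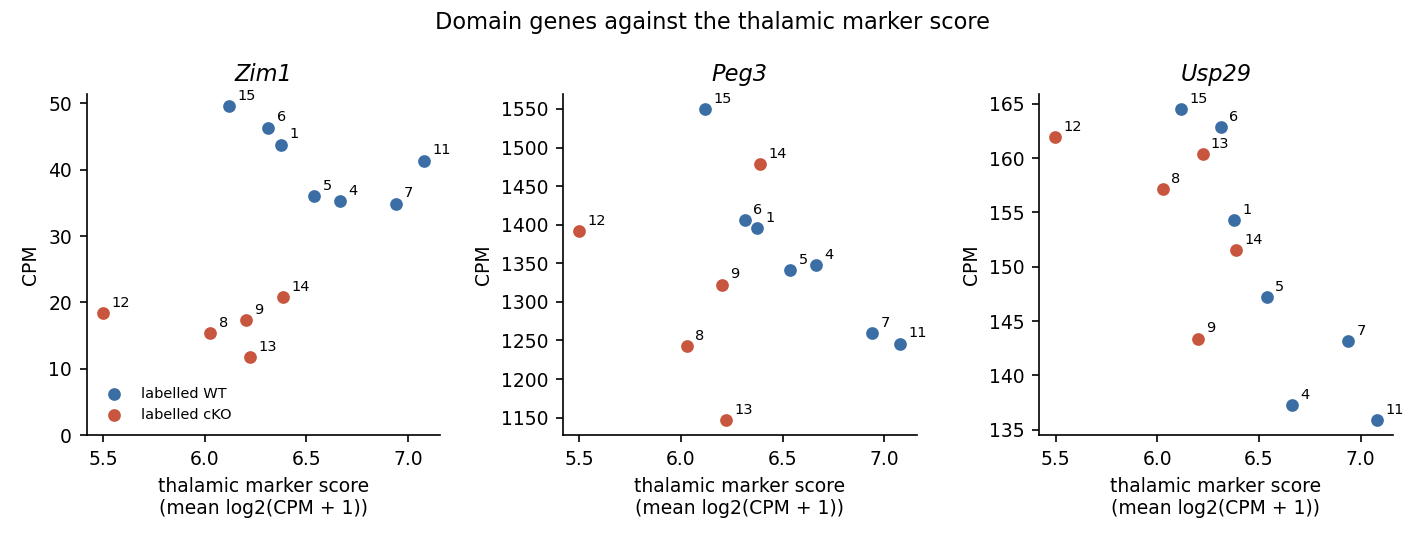
CPM of Zim1, Peg3 and Usp29 (vertical axes; only that of Zim1 starts at 0) against the thalamic marker score, the mean of log2(CPM + 1) over 12 genes, in each library labelled WT (blue) or cKO (red), with mouse numbers. Where the scores of the groups overlap, between 6.12 and 6.39, Zim1 is at 43.7 CPM or more in WT and at 20.8 CPM or less in cKO. The choice of Zim1 had fixed this separation for any subset of libraries, so it is a description, and the part of tissue makeup was not tested.

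Marker scores were also entered into the fit as covariates, and libraries were left out, as a description of how the values depend on these choices. Given the thalamic score, the log2 fold change of Zim1 was -1.39, with the hypothalamic score -1.31 and with both -1.46, against -1.26 without a score. Leaving out WT 4 and WT 5 together gave -1.33, leaving out cKO 12 and cKO 13 as well gave -1.23, and leaving out any 1 of the 12 libraries gave -1.33 to -1.14. Usp29 changed sign with the thalamic score, to -0.06, with both scores, to -0.07, and without those 4 libraries, to -0.01. Peg3 ran from -0.17 to -0.02 over the 12 settings that do not leave out a single library. The part of tissue makeup in the differences was not tested.

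**Figure D5:**
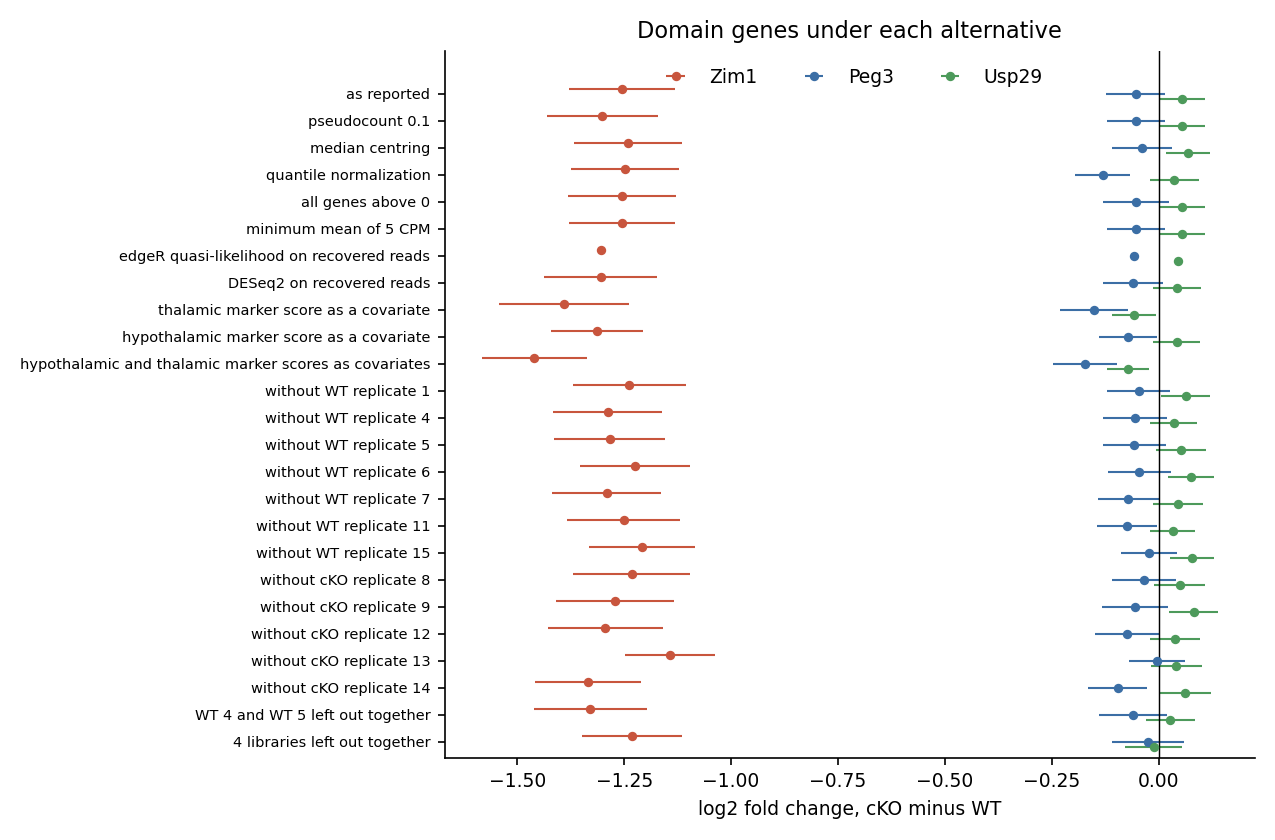
Log2 fold change, libraries labelled cKO minus WT (horizontal axis), of Zim1 (red), Peg3 (blue) and Usp29 (green) under each setting and with libraries left out, the last setting leaving out WT 4, WT 5, cKO 12 and cKO 13; points are estimates and whiskers are SE, which edgeR does not give. Zim1 lies between -1.46 and -1.14 throughout, and Peg3 and Usp29 lie between -0.17 and 0.08.

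Imprinted genes elsewhere in the genome were counted from lists, by the copy they are expressed from. Of 15 tested maternally expressed genes, 1 rose, 3 fell and 11 did not pass the test in limma, beside 6.54% higher and 7.6% lower of all tested genes, with a median log2 fold change of 0.02 beside 0.01 over all tested genes. Kcnk9, a potassium channel gene, was at 156 ± 12.5 CPM (SD, n = 7) in WT and 103 ± 20.2 CPM (SD, n = 5) in cKO, a log2 fold change of -0.61 ± 0.10 (SE; adjusted p = 0.00383, limma). Meg3, a long noncoding RNA, fell by 0.54 on the log2 scale (adjusted p = 0.00815, limma). Cdkn1c, a cell cycle inhibitor gene, fell by 0.54 (adjusted p = 0.0279, limma), a call kept in 10 of 12 other settings and lost with all genes above 0 tested, without WT 4 and WT 5 together, and without WT 1, cKO 8, cKO 9 or cKO 14. Trappc9, which lies in the same imprinted cluster as Kcnk9, rose by 0.21 (adjusted p = 0.0221, limma), a call kept in 8 of 12 other settings, at 0.15 with an adjusted p of 0.169 given the thalamic score, and lost without cKO 9. Without cKO 9, or without WT 4 and WT 5 together, the maternal list had 2 calls.

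Of 19 tested paternally expressed genes outside the domain, 3 rose, 2 fell and 14 did not pass, beside 14.1% past the threshold over all tested genes, with a median log2 fold change of 0.03. Nap1l5, of the nucleosome assembly protein family, rose by 0.33 (adjusted p = 0.00740, limma), and with the thalamic score it was at 0.27 (adjusted p = 0.0624, limma). Mest, a hydrolase-like gene, fell by 0.26 (adjusted p = 0.0143, limma). Snrpn, of the Prader-Willi region, rose by 0.22 (adjusted p = 0.0261, limma), a call kept in 10 of 12 other settings and lost with all genes above 0 tested, without the 4 libraries WT 4, WT 5, cKO 12 and cKO 13, and without WT 1, cKO 9 or cKO 13. Rtl1, a gene derived from a retrotransposon, fell by 0.41 (adjusted p = 0.0282, limma), a call kept in 8 of 12 other settings, at -0.35 with an adjusted p of 0.158 given the thalamic score, and lost without WT 1, WT 6, WT 11, cKO 9, cKO 12 or cKO 14. The count of 5 was 7 with the hypothalamic score; it dropped to 2 with the thalamic score, with all genes above 0 tested, without WT 1, without cKO 9 or without WT 4, WT 5, cKO 12 and cKO 13, and to 3 without WT 6, WT 11, cKO 12, cKO 13 or cKO 14.

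Factors that keep imprinted methylation in place formed another list, of which 15 were tested, 0 rose, 3 fell and 12 did not pass, beside 14.1% past the threshold over all tested genes, with a median log2 fold change of -0.04. Zfp57, a zinc finger protein that binds methylated imprinting control regions, was at 38.5 ± 3.99 CPM (SD, n = 7) in WT and 29.2 ± 1.22 CPM (SD, n = 5) in cKO, a fall of 0.38 on the log2 scale (adjusted p = 0.00586, limma). It passed the threshold in all 12 other settings and with each of the 12 libraries left out. Zfp445, a zinc finger protein of the same function, was at 235 ± 16.1 and 199 ± 11.6 CPM and fell by 0.24 (adjusted p = 0.0139, limma), and with the thalamic score it was at -0.25 (adjusted p = 0.0557, limma). Dnmt3a, a DNA methyltransferase, was at 145 ± 9.95 and 125 ± 8.79 CPM and fell by 0.22 (adjusted p = 0.0245, limma), a call lost without WT 1, cKO 13 or cKO 14. With the thalamic score Dnmt3a was at -0.22 (adjusted p = 0.0899, limma). With the thalamic score the list had 1 call. Of 7 genes whose products are tied to Peg3 function, such as Siah1a, Traf2 and Bax, 0 rose, 1 fell and 6 did not pass, again beside 14.1% of all tested genes. The 1 was Trp53, which encodes p53, with a fall of 0.15 (adjusted p = 0.0487, limma), a call kept in 5 of 12 other settings and lost when any library other than WT 15 was left out.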

How the data were processed

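RNA sequencing was done on 12 hypothalamus samples. The authors deposited normalized CPM per gene and library, and a second table holding the log2 fold changes and p-values of their test. The submitters' processing notes name bcl2fastq, FastQC 0.11.9, STAR 2.7.9a, SAMtools, Subread and featureCounts. The build, annotation and strand setting are not given in the sources used here. The deposited CPM were whole multiples of 1 step per library for 100% of values (tolerance 0.01 reads), so whole reads were recovered, with a floor of 3 reads per library that covers counting error only. Column names gave the sample of each column, and 0 columns were unused.

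The main test was limma 3.58.1 (R 4.3.3; linear fit, moderated with an intensity trend) on log2(CPM + 1) over the 15359 genes that averaged 1 CPM or more, with Benjamini-Hochberg adjustment and a threshold of 0.05. Fold changes on this scale understate those of low genes. On recovered reads edgeR 4.0.16 (quasi-likelihood) called 2097 genes and DESeq2 1.42.0 called 2747. The fit was tested on simulated data. The labels give mouse numbers and do not say more on how the samples were taken, so p-values measure the spread between these samples.

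Correlations used exact permutation tests over the libraries, adjusted over 3 gene pairs and over 9 relations between genes and marker scores, fewer than planned because Zfp264 had no row. The members and the gene lists were chosen with earlier results of these data known. Genes named are the members, other domain genes in the table, flanking genes past the threshold, up to 4 genes per list with the smallest adjusted p, and the 5 genes most like Zim1 and Peg3. Zfp667, Mir3099 and the flanking genes named with Zfp667 were named after their values were seen. Alternatives were quantile normalization, median centring, a pseudocount of 0.1, a minimum mean of 5 CPM, no minimum beyond a value above 0, edgeR, DESeq2, marker scores as covariates and leaving out each library. Correlations over both groups and leaving out WT 4 and WT 5, or these with cKO 12 and cKO 13, were chosen after seeing the data.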

Additional observations from a re-analysis of the deposited data

Results flagged for a closer look

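The score of choroid plexus and ependymal markers, the mean of log2(CPM + 1) over the markers tested, was 3.57 in cKO 8. The nearest other library labelled cKO was at 3.31, and cKO 8 stood apart from its group by the spread test used for groups of 4 to 10 samples, which sets the gap of a single highest or lowest library against the range and does not pick out pairs of libraries. In all 34 groups of values were examined in this way, of the domain genes, their ratios and the marker scores, and 1 stood apart, where chance gives 1.7. In cKO 8, Zim1 was at 15.4 CPM, Peg3 at 1243 CPM and Usp29 at 157 CPM, and none of these stood apart in its group. Without cKO 8 the log2 fold change of Zim1 was -1.23.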

How the results depend on the processing

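The log2 fold change of Zim1 was -1.46 to -1.23 over 12 other settings and -1.33 to -1.14 with each library left out; Peg3 was at -0.17 to -0.02 and -0.10 to -0.0046, and Usp29 at -0.072 to 0.07 and 0.03 to 0.08. Usp29 was at -0.057 with the thalamic score as a covariate and -0.072 with both scores. The count of genes past the threshold was 2172, and it was 821 (303 higher, 518 lower) with the thalamic score, 2965 with the hypothalamic score and 1661 with both. Without WT 1, the deepest library, the count was 1161, and with each library left out it was 1161 to 2309. The cause was not tested.

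No paired analysis was possible because the groups share no mouse number in the labels. Over both groups with means removed, r was 0.40 for Peg3 and Usp29, 0.87 for Zim1 and Peg3, -0.55 for Peg3 and the thalamic score and, against the cortical and striatal score, -0.28 for Peg3, 0.094 for Usp29 and -0.15 for Zim1. With WT 4, WT 5, cKO 12 and cKO 13 left out as well, these were 0.66, 0.90, -0.60, -0.14, 0.035 and -0.0045, and Usp29 against the thalamic score was at -0.91 (adjusted permutation p = 0.138). Quantile normalization gave 0.90 for Zim1 and Peg3 (adjusted permutation p = 0.0333) and 0.79 for Zim1 and Usp29 (adjusted permutation p = 0.0496), and a pseudocount of 0.1 gave 0.30 for Usp29 and the cortical and striatal score. With each WT library left out, r was 0.78 to 0.92 for Peg3 and Usp29, 0.50 to 0.88 for Zim1 and Peg3, and 0.67 to 0.95 for Zim1 and Usp29; the last 2 passed without WT 11. Against the thalamic score it was -0.98 to -0.94 for Peg3, lost without WT 1, WT 6 or WT 15, -0.96 to -0.84 for Usp29, lost without WT 1, WT 5, WT 6, WT 11 or WT 15, and -0.91 to -0.48 for Zim1, past the threshold without WT 11. Zim1 and the hypothalamic score gave 0.66 to 0.96, with a call without WT 7 that is not read, since WT 4 and WT 5 lie far below the rest. Against the cortical and striatal score Peg3 gave -0.20 to 0.30 and Usp29 -0.33 to 0.16. Depth limits Zim2 and Zim3, and not the 3 measured genes, which had 248 reads or more in every library.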
